A study of Saccharomyces cerevisiae with 16 samples.

Results

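The genes described here encode the translation initiation factors that hold the small ribosomal subunit ready for scanning: the 5 subunits of the yeast eIF3 core, the loosely bound subunit eIF3j, and the single-chain factors eIF1, eIF1A and eIF5. They were taken by name, by a rule that uses no measured value, and are 9 of the 7126 features in the RNA count tables. The eIF3 core genes are TIF32 (eIF3a), NIP1 (eIF3c), PRT1 (eIF3b), TIF34 (eIF3i) and TIF35 (eIF3g), HCR1 encodes eIF3j, SUI1 encodes eIF1, TIF11 encodes eIF1A and TIF5 encodes eIF5. All 9 genes passed the filter on low counts in every comparison.

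The libraries came from Saccharomyces cerevisiae BY4742, a haploid laboratory strain of mating type alpha, in which eIF4E, the protein that binds the mRNA cap, carries an auxin-inducible degron (genotype eIF4E-AID, at the gene CDC33). Cultures in rich medium received 500 µM of the auxin IAA (indole-3-acetic acid), which marks the tagged protein for degradation, or the solvent DMSO, for 1 or 8 h, and RNA-seq and ribosome profiling were done on each. This gives 8 groups of 2 libraries, 16 in all: RNA and ribosome footprints after IAA and after DMSO at both times. Tagged eIF4E is common to the IAA and DMSO groups, and no untagged strain given IAA was analysed here, so an effect of IAA itself and the loss of eIF4E cannot be told apart. The replicates are labelled biological, but not said to be separate cultures, and every p-value therefore covers only the spread between these libraries, which may be technical. Preparation also differed between the times (poly(A) selection at 1 h and rRNA depletion at 8 h for RNA, another ligase, primer and rRNA removal for footprints), and cannot be told apart from the time.

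During initiation, eIF3 binds the small subunit and bridges it to the mRNA and the other factors, while eIF1 and eIF1A keep the subunit open for scanning. eIF5 makes eIF2 hydrolyse its GTP, and eIF1 leaves the subunit once a start codon is recognised. In yeast, eIF1, eIF3, eIF5 and eIF2 with the initiator tRNA can be isolated as a single complex. eIF4E works upstream of these factors, at the cap, with eIF4G and the helicase eIF4A. In yeast, eIF1 also limits its own synthesis, because the SUI1 start codon lies in a poor sequence context that eIF1 helps to reject.

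The start codon windows are shown because these proteins read that context. Each runs 5′ to 3′ from the reference genome (RefSeq, build R64), with 12 bases before the start codon and 6 from its first base on, and capitals mark the bases from position -3 to -1 and the start codon.
TIF32, chrII:398272-398289, minus strand: ggaaacatcAAGATGgcc
NIP1, chrXIII:895421-895438, minus strand: agatctacgAAAATGtcc
PRT1, chrXV:1017647-1017664, minus strand: agcgggaaaCTAATGaaa
TIF34, chrXIII:558519-558536, minus strand: cagacaaggAATATGaag
TIF35, chrIV:1325296-1325313, minus strand: ccaccaggaATAATGagt
HCR1, chrXII:539584-539601, minus strand: aaagtaataAAAATGtct
SUI1, chrXIV:187491-187508, minus strand: gaagcaaatCGTATGtcc
TIF11, chrXIII:789834-789851, minus strand: gcaaagttcATCATGggt
TIF5, chrXVI:648692-648709, plus strand: cactggtacAAGATGtct
Position -3 is an A in 7 of the 9, as in 60.8% of the 5998 protein-coding genes with an ATG start. PRT1 and SUI1 have a C there, as in 8.70% of those genes. The 3 bases before the SUI1 start codon precede that of 17 genes (0.283%), and those before the PRT1 start codon that of 51 (0.850%). HCR1 and NIP1 share AAA, found in 12.7% of genes.

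In the R64 annotation the genes are TIF32 (YBR079C) on chromosome II from 395383 to 398277, NIP1 (YMR309C) on chromosome XIII from 892988 to 895426, PRT1 (YOR361C) on chromosome XV from 1015361 to 1017652, TIF34 (YMR146C) on chromosome XIII from 557481 to 558524, TIF35 (YDR429C) on chromosome IV from 1324477 to 1325301, HCR1 (YLR192C) on chromosome XII from 538792 to 539589, SUI1 (YNL244C) on chromosome XIV from 187170 to 187496, TIF11 (YMR260C) on chromosome XIII from 789378 to 789839 and TIF5 (YPR041W) on chromosome XVI from 648704 to 649921. TIF5 is on the plus strand and the other 8 on the minus strand. Each coding sequence is a single block with no intron, and none overlaps another annotated coding sequence. Coding lengths separate the set into TIF32, NIP1 and PRT1 with 2895, 2439 and 2292 bases, and the other 6 with 327 (SUI1) to 1218 bases (TIF5).

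RNA libraries held 32096327 to 50294053 counts at 1 h and 10182227 to 15072930 counts at 8 h. Footprint libraries at 1 h held 2849721 and 3651300 counts after IAA and 8010138 and 6431552 counts after DMSO, so depth differed with treatment. At 8 h they held 1766499 to 9985060 counts. Of these, each member took 11247 to 48911 RNA counts at 1 h and 1719 to 7083 RNA counts at 8 h. Its footprint counts were 411 to 4536 at 1 h and 328 to 3183 at 8 h. Of the strain's markers, no RNA library held over 37 counts of a deleted gene (URA3, LYS2, LEU2 or HIS3; 4 in all), and the 3 genes of alpha cells had at least 3186. The a-cell genes, which this strain should not express, had 5 to 872. Counts do not show the loss of the eIF4E protein itself, which is broken down after it is made.

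Values per library are given as CPM, the count of a gene relative to the size of its library, with that size scaled by TMM, a method that takes most genes as unchanged. Higher and lower therefore mean relative to the other genes, and a change shared by most genes does not show. A gene is called higher or lower where the Benjamini-Hochberg adjusted p of edgeR's quasi-likelihood test, over all genes of the comparison, is under 0.05, and log2 fold changes are IAA over DMSO with their SE. Groups of 2 libraries separate easily, so a lack of overlap is given only as a description. The share of all genes without overlap was not counted.

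After 1 h of IAA, RNA of most of these genes was lower than in DMSO, with PRT1 as the exception. Of the 9 genes 6 were called lower and 1 higher, where 20.9% and 21.9% of the 6247 genes tested were, so the share of members called higher was below the background. The median log2 fold change was -0.38, against 0.0063 over all genes tested.

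Among the large eIF3 subunits, PRT1, whose product is a scaffold of the core, had 991 and 876 CPM after IAA and 772 and 718 CPM after DMSO. Both IAA libraries lay above both DMSO libraries, and the log2 fold change was 0.33 ± 0.10 (adjusted p = 0.0461). TIF32, whose product spans the solvent side of the subunit, had 666 and 613 CPM after IAA and 765 and 701 CPM after DMSO, with a log2 fold change of -0.20 ± 0.096 (adjusted p = 0.144). NIP1, whose product binds eIF1 and eIF5, had 363 and 371 CPM after IAA and 383 and 394 CPM after DMSO, with a log2 fold change of -0.081 ± 0.076 (adjusted p = 0.416). For TIF32 and NIP1 the groups did not overlap, but the difference did not pass the test.

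The genes of the small core subunits fell together. TIF34 had 525 and 471 CPM after IAA and 698 and 646 CPM after DMSO, a log2 fold change of -0.43 ± 0.097 (adjusted p = 0.0149). TIF35 had 471 and 411 CPM after IAA and 620.2 and 578 CPM after DMSO, a log2 fold change of -0.44 ± 0.10 (adjusted p = 0.0157). Their products, eIF3i and eIF3g, bind each other and join the core through eIF3b. HCR1, whose product links eIF3 to the small subunit's decoding site, had 354 and 331 CPM after IAA and 454 and 436 CPM after DMSO, a log2 fold change of -0.38 ± 0.081 (adjusted p = 0.0132).

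SUI1 fell furthest of the 9, with 285 and 251 CPM after IAA and 411 and 369 CPM after DMSO. Its log2 fold change was -0.54 ± 0.10 (adjusted p = 0.00781), a level 0.688 times that in DMSO. TIF11 had 553 and 461 CPM after IAA and 672 and 619.8 CPM after DMSO, and TIF5 434 and 381 CPM after IAA and 557 and 513 CPM after DMSO. Their log2 fold changes were -0.35 ± 0.11 (adjusted p = 0.0496) and -0.39 ± 0.10 (adjusted p = 0.0226).

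The RNA calls at 1 h rested most on DMSO replicate 1: 6 and 5 members were called without IAA replicates 1 and 2, and 1 and 5 without DMSO replicates 1 and 2, with SUI1 called each time. PRT1 and TIF11 also lost their calls with DESeq2 size factors (adjusted p = 0.0629 and 0.0534), and scaling by total counts, which moved the median of all genes by 0.22, left 2 calls (SUI1 lower and PRT1 higher). Over all genes 2340 higher and 520 lower were called with total counts, against 1368 higher and 1307 lower with TMM.

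**Figure D1:**
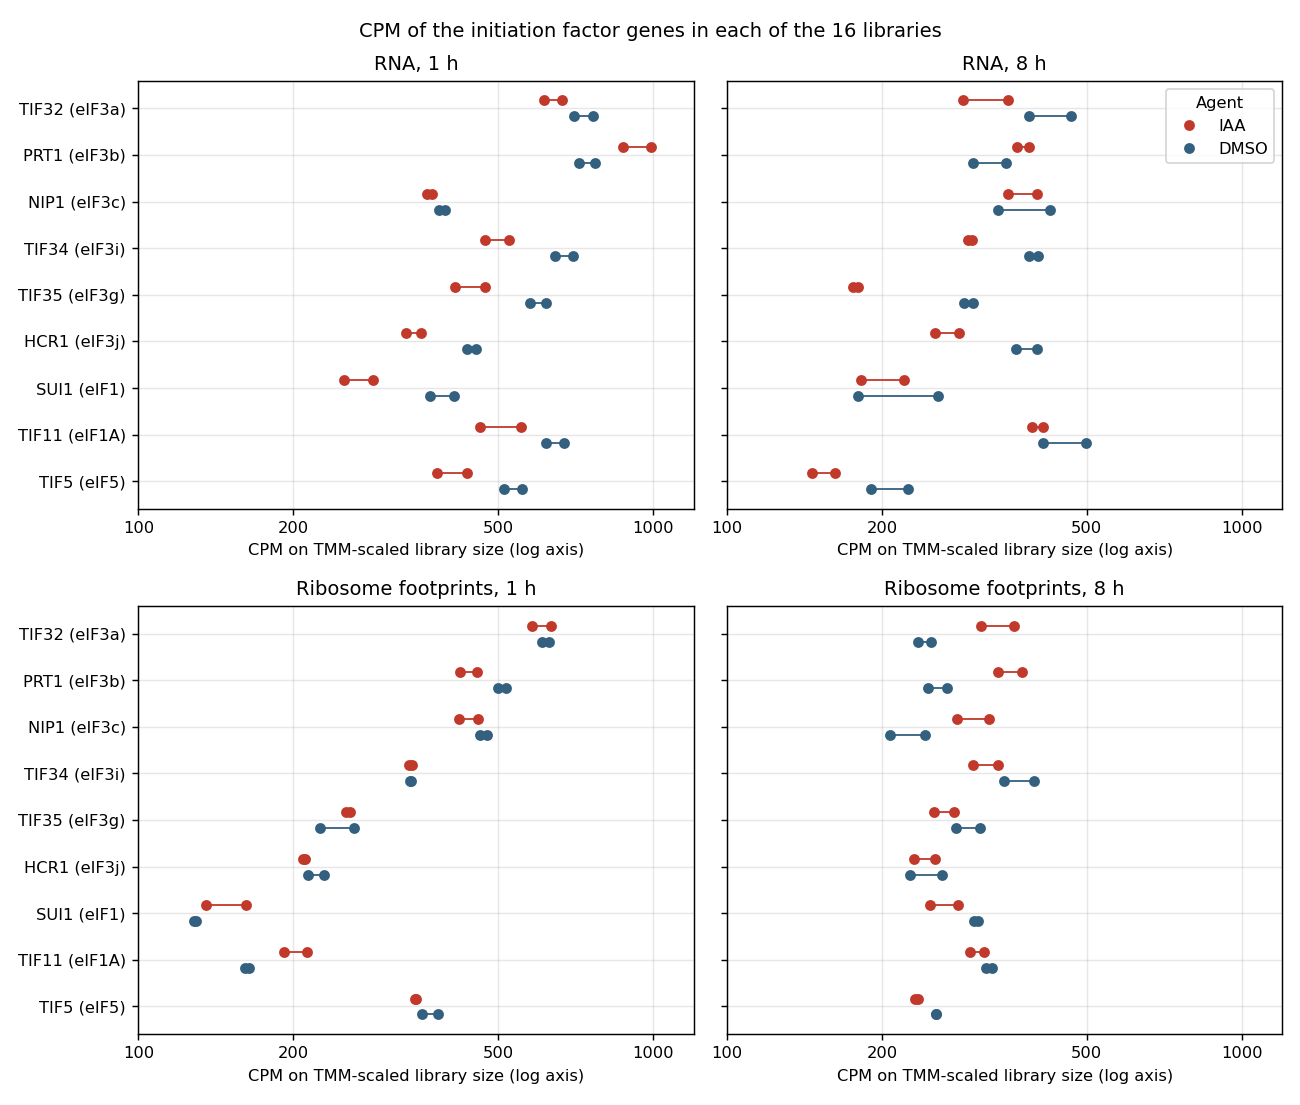
CPM on TMM-scaled library sizes (log axis) of the 9 genes in each of the 16 libraries, with a point for each library, a line joining the 2 replicates, and IAA above DMSO in each pair. At 1 h the RNA of PRT1 sits higher after IAA (991 and 876, against 772 and 718 CPM in DMSO) and that of the other 8 lower, of which 6 were called. At 8 h the footprints of TIF32, PRT1 and NIP1 sit higher after IAA. CPM is not scaled by length, so genes are not to be compared with each other here.

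In footprints at 1 h, SUI1 and TIF11 were higher after IAA and PRT1 was lower. Of the 9 genes 2 were called higher and 1 lower, where 11.1% and 14.9% of the 5169 genes tested were, so the share of members called lower was near the background. The median log2 fold change was -0.024, against 0.0092 over all genes tested.

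Relative to the other genes, the footprints of SUI1 and TIF11 rose, while their RNA fell. The total amount of footprints per cell is not measured by these counts. SUI1 had 135 and 162 footprint CPM after IAA and 128 and 129 CPM after DMSO, a log2 fold change of 0.22 ± 0.073 (adjusted p = 0.0230). TIF11 had 212 and 191 CPM after IAA and 164 and 161 CPM after DMSO, a log2 fold change of 0.31 ± 0.066 (adjusted p = 0.000389). For both genes the IAA libraries lay above the DMSO libraries, and the SUI1 IAA libraries were the further apart.

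PRT1, whose RNA was called higher but near the threshold, had fewer footprints. It had 421 and 454 CPM after IAA and 517 and 501 CPM after DMSO, a log2 fold change of -0.22 ± 0.057 (adjusted p = 0.00395). The groups did not overlap. The other 6 genes did not pass the test, and their log2 fold changes ran from -0.096 (TIF5) to 0.070 (TIF35). TIF34 was nearly level, with 341 and 335 CPM after IAA and 336 and 338 CPM after DMSO.

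The rise of TIF11 passed the test under all 10 alternatives. SUI1 was no longer called with DESeq2 (adjusted p = 0.221), in a fit of all 8 footprint libraries (0.230), or without IAA replicate 2 (log2 fold change 0.074), DMSO replicate 1 (0.21) or DMSO replicate 2 (0.23), and PRT1 without IAA replicate 1 (-0.17), in the fit of all 8 (-0.22) or with total counts (-0.034, where the median of all genes moved by 0.18). With total counts 5 members were called, all higher (SUI1, TIF11, TIF32, TIF34 and TIF35), and over all genes 1588 higher and 290 lower, against 575 higher and 768 lower with TMM.

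Translation efficiency compares footprints with RNA of the same gene, and its change is the log2 fold change of footprints less that of RNA, tested as an interaction. That fit scales the 8 libraries of a time together. Its values are therefore not exactly the differences of the RNA and footprint fold changes printed here. The same holds for the differences between the times, from fits of 8 libraries of an assay. The ratios per library are given as CPM of footprints over CPM of RNA after TMM scaling over the 8 libraries of a time together. They are therefore not the quotients of the CPM values above, which were scaled within an assay, and only their difference between IAA and DMSO is read. At 1 h translation efficiency was called higher for 4 of the 9 genes and lower for 1, where 9.88% and 10.4% of the 6055 genes tested were. The share of members called lower was thus near the background. The median change was 0.23, against -0.0082 over all genes tested.

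SUI1 had 1.07 and 1.46 as its footprint-to-RNA ratio after IAA and 0.738 and 0.828 after DMSO, with libraries set side by side by replicate number. Its efficiency changed by 0.69 ± 0.15 (adjusted p = 0.00847) on the log2 scale, the largest rise of the 9. TIF11 had ratios of 0.863 and 0.942 after IAA and 0.578 and 0.614 after DMSO, a change of 0.59 ± 0.14 (adjusted p = 0.0145). Relative to the other genes, SUI1 and TIF11 thus both gained footprints per RNA, and their ratios did not overlap between the groups. They are also the shortest members, and all genes under 500 bases had a median efficiency change of 0.20 and RNA change of -0.19 at 1 h. The part of length was not tested.

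PRT1 moved the other way, with ratios of 0.957 and 1.18 after IAA and 1.59 and 1.65 after DMSO and a change of -0.61 ± 0.13 (adjusted p = 0.00729). TIF35 had ratios of 1.21 and 1.42 after IAA and 0.860 and 1.07 after DMSO, a change of 0.44 ± 0.14 (adjusted p = 0.0435). TIF34 had 1.46 and 1.62 after IAA and 1.14 and 1.24 after DMSO, a change of 0.37 ± 0.12 (adjusted p = 0.0456). TIF5, HCR1, TIF32 and NIP1 were not called, with changes of 0.23, 0.23, 0.11 and -0.078. SUI1 and PRT1 have a C at position -3 in the windows printed above, and their efficiency changed in opposite directions at 1 h, while at 8 h neither was called. Whether the start context has a part in these changes was not tested.

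SUI1 missed the threshold only without footprint IAA replicate 2 (log2 change 0.56, adjusted p = 0.0579) and PRT1 only without footprint IAA replicate 1 (-0.55, 0.0538), whereas TIF11 lost its call without footprint IAA replicate 1 (0.53), DMSO replicate 1 (0.62) or DMSO replicate 2 (0.59), and TIF34 and TIF35 each lost theirs without footprint IAA replicate 1, footprint IAA replicate 2, footprint DMSO replicate 1, RNA IAA replicate 2 or RNA DMSO replicate 1, TIF34 also without footprint DMSO replicate 2, and both with DESeq2 size factors, which left 3 calls. The count of members called was 1 and 2 without footprint IAA replicates 1 and 2, 2 and 3 without footprint DMSO replicates 1 and 2, and 3 without RNA IAA replicate 2 or without RNA DMSO replicate 1.

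After 8 h of IAA, RNA of TIF35 and HCR1 was lower than in DMSO, and the other 7 members did not pass the test. The 2 calls of 9 compare with 8.61% of the 6100 genes tested called lower. No member was called higher by edgeR or by DESeq2, or at an unadjusted p under 0.05 (0 of 9 each), where 9.03% of genes were called higher. The median log2 fold change was -0.41, against 0.0080 over all genes tested.

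TIF35 had 175 and 179.8 RNA CPM after IAA and 300.0 and 289 CPM after DMSO, a log2 fold change of -0.73 ± 0.11 (adjusted p = 0.00723). HCR1 had 282 and 253 CPM after IAA and 400.2 and 364 CPM after DMSO, a log2 fold change of -0.51 ± 0.13 (adjusted p = 0.0338). Neither gene had overlapping groups. TIF5 with 162 and 147 CPM after IAA and 190.1 and 224 CPM after DMSO, and TIF34 with 299.7 and 294 CPM after IAA and 386 and 402 CPM after DMSO, lay just outside the threshold (adjusted p = 0.0506 and 0.0536). TIF32 had 352 and 288 CPM after IAA and 387 and 466 CPM after DMSO, a log2 fold change of -0.42 ± 0.16 (adjusted p = 0.108).

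SUI1, which had fallen furthest at 1 h, had 182 and 221 RNA CPM after IAA and 257 and 179 CPM after DMSO, and the IAA libraries lay within the DMSO range (log2 fold change -0.11 ± 0.18, adjusted p = 0.709). NIP1 had 400.0 and 351 CPM after IAA and 336 and 424 CPM after DMSO, TIF11 391 and 410.4 CPM after IAA and 499 and 412 CPM after DMSO, and PRT1 386 and 366 CPM after IAA and 300.4 and 348 CPM after DMSO. PRT1 again had its IAA libraries above the DMSO ones, with a log2 fold change of 0.21 ± 0.13 (adjusted p = 0.287) that did not pass.

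DESeq2 called 5 members lower, TIF32 among them (adjusted p = 0.0317), and a fit of all 8 RNA libraries 4. Without IAA replicate 1 or IAA replicate 2 edgeR called 0 members, with TIF35 at -0.71 and -0.74 (adjusted p = 0.0558 and 0.0542), while HCR1 also lost its call without DMSO replicate 1 (-0.44) and with total counts (-0.47).

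**Figure D2:**
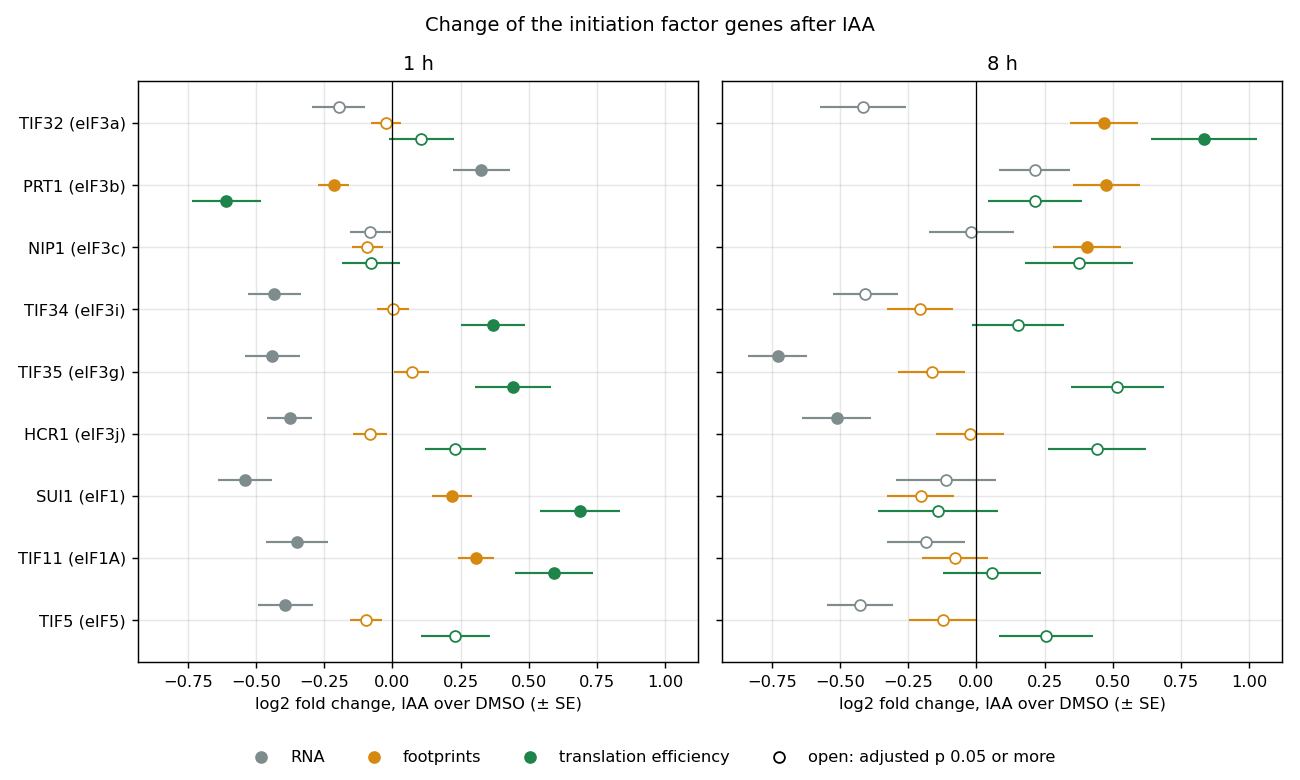
Log2 fold change of IAA over DMSO (± SE) for RNA, footprints and translation efficiency of the 9 genes at 1 h and 8 h, where filled points have an edgeR adjusted p under 0.05. At 1 h RNA and footprints of SUI1 point in opposite directions (-0.54 and 0.22), as do those of PRT1 (0.33 and -0.22), and at 8 h the filled footprint points are TIF32, PRT1 and NIP1.

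At 8 h the footprints of the 3 large eIF3 subunits rose together, by 0.47 (TIF32), 0.41 (NIP1) and 0.48 (PRT1) on the log2 scale, and those of the other 6 genes did not pass the test. The 3 calls of 9 compare with 11.1% of the 5012 genes tested called higher. No member was called lower by edgeR or DESeq2, or at an unadjusted p under 0.05 (0 of 9 each), where 13.0% of genes were called lower. The median log2 fold change was -0.079, against 0.0073 over all genes tested.

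TIF32 had 361 and 312 footprint CPM after IAA and 235 and 249 CPM after DMSO (adjusted p = 0.00347). NIP1 had 323 and 279.6 CPM after IAA and 207 and 243 CPM after DMSO (adjusted p = 0.0136). PRT1 had 374 and 336 CPM after IAA and 268 and 246 CPM after DMSO (adjusted p = 0.00275). As a description, both IAA libraries of each of the 3 genes lay above both DMSO libraries, and IAA replicate 1 was the highest of the 4.

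Footprints of the small core subunit genes did not pass the test, with all IAA values below the DMSO values. TIF34 had 336 and 301 CPM after IAA and 394 and 345 CPM after DMSO, and TIF35 252 and 276 CPM after IAA and 279 and 309.6 CPM after DMSO, log2 fold changes of -0.21 ± 0.12 (adjusted p = 0.228) and -0.16 ± 0.12 (adjusted p = 0.361). HCR1 had 231 and 253 CPM after IAA and 227 and 261 CPM after DMSO, with overlapping groups. SUI1 had 248 and 281 CPM after IAA and 308 and 303 CPM after DMSO, TIF11 297 and 316 CPM after IAA and 319 and 328 CPM after DMSO, and TIF5 235 and 232 CPM after IAA and 254 and 254 CPM after DMSO. These values are relative to the other genes of a library, and with scaling by total counts, which moved the median of all genes by 0.27, the 6 smaller genes had log2 fold changes of 0.062 to 0.24 and TIF32, NIP1 and PRT1 were called higher. Over all genes 1312 higher and 194 lower were called with total counts, against 554 higher and 652 lower with TMM.

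Without IAA replicate 1 edgeR called 0 members, with TIF32, NIP1 and PRT1 at 0.36, 0.30 and 0.40 (adjusted p = 0.152, 0.279 and 0.0979). NIP1 also lost its call without DMSO replicate 1, the shallowest footprint library (0.31), and PRT1 without DMSO replicate 2 (0.39).

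Translation efficiency at 8 h was called higher for TIF32 and for no other member, where 3.45% of the 5442 genes tested were called higher. No member was called lower by edgeR or DESeq2, or at an unadjusted p under 0.05 (0 of 9 each), and 2.02% of genes were. The median change was 0.25, against -0.024 over all genes tested.

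TIF32 footprints rose, and its RNA estimate was lower (-0.42) but not called by edgeR. On the same joint scaling, its footprint-to-RNA ratios were 1.47 and 1.57 after IAA and 0.889 and 0.808 after DMSO. Its change was 0.83 ± 0.19 (adjusted p = 0.0210) on the log2 scale. TIF35 had ratios of 2.06 and 2.22 after IAA and 1.36 and 1.62 after DMSO, and HCR1 1.17 and 1.45 after IAA and 0.829 and 1.08 after DMSO. Neither gene passed, with changes of 0.52 ± 0.17 (adjusted p = 0.0778) and 0.44 ± 0.18 (adjusted p = 0.149). SUI1, called higher at 1 h, had a change of -0.14 ± 0.22 (adjusted p = 0.756), and its ratios were 1.95 and 1.84 after IAA and 1.75 and 2.55 after DMSO. PRT1, called lower at 1 h, had a change of 0.21 ± 0.17 (adjusted p = 0.495).

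The TIF32 call was lost without footprint IAA replicate 1 (log2 change 0.74, adjusted p = 0.148), RNA IAA replicate 2 (0.75, 0.0776) or footprint DMSO replicate 1 (0.78, 0.0700). DESeq2 called 2 members higher.

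The response of footprints to IAA differed between the times for the large eIF3 subunits. The change at 8 h less that at 1 h was 0.71 ± 0.13 (adjusted p = 0.000790) for PRT1, 0.51 ± 0.14 (adjusted p = 0.0176) for NIP1 and 0.50 ± 0.13 (adjusted p = 0.0129) for TIF32. These 3 calls of 9 compare with 8.05% of the 5034 genes tested that were called higher. Genes of 1500 bases or more had a median difference of 0.22, against -0.44 for genes under 500 bases. The PRT1 estimates thus had opposite signs, with log2 fold changes of -0.22 at 1 h and 0.48 at 8 h, though the call at each time was lost under some alternatives.

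SUI1 and TIF11 had differences of -0.40 ± 0.14 (adjusted p = 0.0617) and -0.38 ± 0.13 (adjusted p = 0.0553), outside the threshold. No member was called lower by edgeR or by DESeq2 (0 of 9 each), while SUI1 and TIF11 had an unadjusted p under 0.05, and 4.89% of genes were called lower. TIF34, TIF35, HCR1 and TIF5 had differences of -0.19, -0.22, 0.064 and -0.015. PRT1 kept its call under all 13 alternatives and was the only member called (1 of 9) without 1 h IAA replicate 1, 8 h IAA replicate 1 or 1 h DMSO replicate 2. Without 1 h IAA replicate 2, NIP1 lost its call (0.57). SUI1 and TIF11 were called lower without 8 h IAA replicate 2 or without the filter on low counts (5 members called each), and TIF11 without 8 h DMSO replicate 1.

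For RNA, no member was called different between the times by edgeR or DESeq2, or at an unadjusted p under 0.05 (0 of 9 each). Of the 6451 genes tested 0.946% were called higher and 0.496% lower. The differences for the members ran from -0.30 ± 0.16 (TIF35) to 0.41 ± 0.24 (SUI1).

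Levels can be set beside each other between genes only per length, and were read as footprint CPM per kilobase of coding sequence. The footprint tables leave out 20 codons of most coding sequences, which lowers this density most for the shortest genes. In all 4 footprint groups SUI1 and TIF11 stood at the top and the 3 large eIF3 subunits at the bottom. At 1 h SUI1 averaged 455 ± 56.9 after IAA and 394 ± 2.96 after DMSO, and TIF11 437 ± 32.0 after IAA and 352 ± 4.31 after DMSO (CPM per kilobase, SD, n = 2 each). NIP1, the lowest at 1 h, averaged 179.6 ± 10.6 after IAA and 192 ± 4.01 after DMSO. After IAA the order below TIF11 was TIF34, TIF35, TIF5, HCR1, TIF32, PRT1 and NIP1, and the neighbours SUI1 and TIF11, and PRT1 and NIP1, overlapped. After DMSO TIF5 stood above TIF35 and PRT1 above TIF32, and the neighbours TIF5 and TIF35, and TIF35 and HCR1, overlapped. Over the coding length less 20 codons TIF35 stood above TIF5 in this group, and HCR1 above TIF34 after IAA at 8 h.

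At 8 h the same genes lay further apart in level. SUI1 averaged 809 ± 71.6 after IAA and 933 ± 11.7 after DMSO, and TIF32, now the lowest, 116 ± 11.9 after IAA and 83.7 ± 3.40 after DMSO. The order was SUI1, TIF11, TIF35, TIF34, HCR1, TIF5, PRT1, NIP1 and TIF32 in both groups. TIF35 and TIF34, and NIP1 and TIF32, overlapped in both groups, and TIF34 and HCR1 after IAA only. In each 8 h library SUI1 exceeded TIF32, by 6.08 and 7.97 times after IAA and 11.6 and 10.7 times after DMSO, and at 1 h by 2.06 and 2.27 times after IAA and 1.86 and 1.83 times after DMSO.

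A ratio within a library does not depend on its scaling. The mean footprint density of TIF32, NIP1 and PRT1 over that of TIF34 and TIF35, whose products join the same complex, was 0.446 and 0.396 after IAA and 0.263 and 0.277 after DMSO at 8 h. At 1 h it was 0.586 and 0.635 after IAA and 0.700 and 0.653 after DMSO. The large subunits thus had a lower density than the small ones in every footprint library, by the widest margin after DMSO at 8 h, and the IAA libraries lay above the DMSO libraries at 8 h and below them at 1 h. The same ratio in RNA was 0.605 and 0.538 after IAA and 0.366 and 0.442 after DMSO at 8 h, and 0.504 and 0.524 after IAA and 0.356 and 0.362 after DMSO at 1 h, higher after IAA at both times. These ratios are descriptions, without a test.

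**Figure D3:**
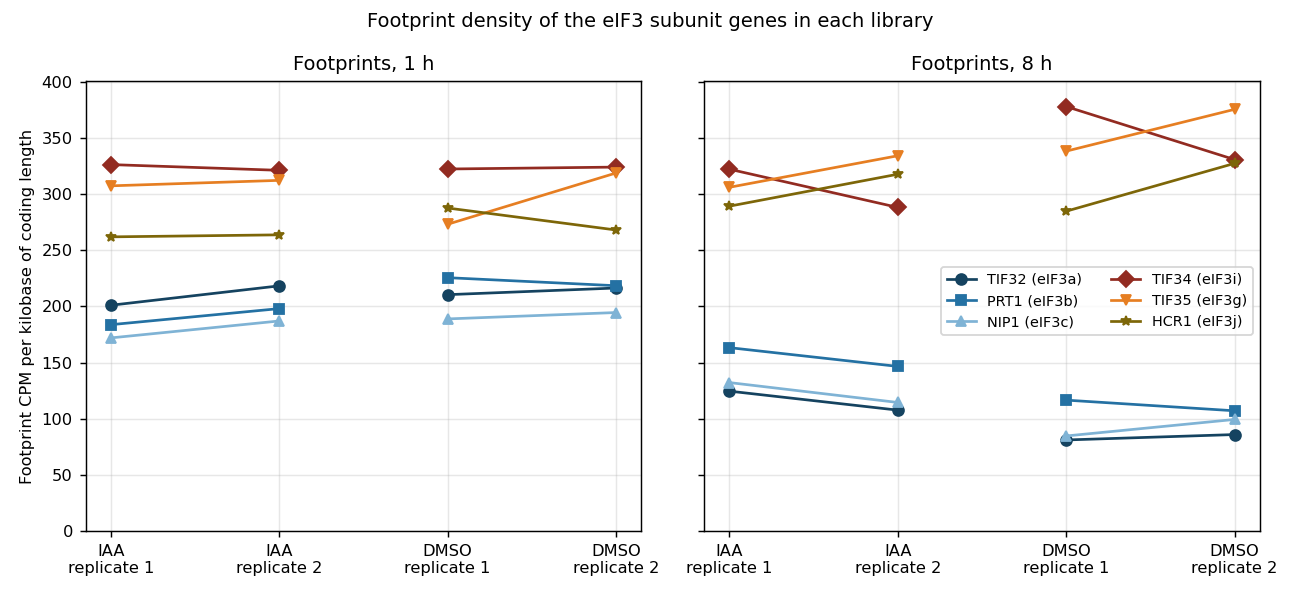
Footprint CPM per kilobase of coding length of the eIF3 subunit genes in each library, IAA left of DMSO, with lines joining the 2 replicates of a group. At 8 h TIF32, PRT1 and NIP1 lie below TIF34, TIF35 and HCR1 in all 4 libraries and higher after IAA (TIF32 125 and 108) than after DMSO (81.3 and 86.1).

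Coding length, which the choice of genes did not use, moves with these values, and its part in them was not tested. Over all genes of 1500 bases or more the median footprint change at 8 h was 0.22, against -0.097 for genes from 500 up to 1500 bases and -0.35 for genes under 500 bases. TIF32, NIP1 and PRT1 had 0.47, 0.41 and 0.48, above the median of their class. SUI1 and TIF11, in the shortest class, had -0.20 and -0.079, also above the median of theirs. At 1 h the 3 class medians were -0.016, 0.023 and 0.061, from long to short, and SUI1 and TIF11 had 0.22 and 0.31.

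Spearman's rho of coding length with the footprint change at 8 h was 0.62 over the 9 members and 0.45 over all protein-coding genes tested, and with that at 1 h -0.68 over the members and -0.089 over all. With the efficiency change it was 0.58 over the members and 0.38 over all at 8 h, and -0.83 over the members and -0.15 over all at 1 h. With the footprint difference between the times it was 0.83 over the members and 0.50 over all. The class medians of that difference were 0.22, -0.11 and -0.44, from long to short. These are descriptions across genes measured in the same libraries. The sign was thus opposite at the 2 times, for the members as for all genes.

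**Figure D4:**
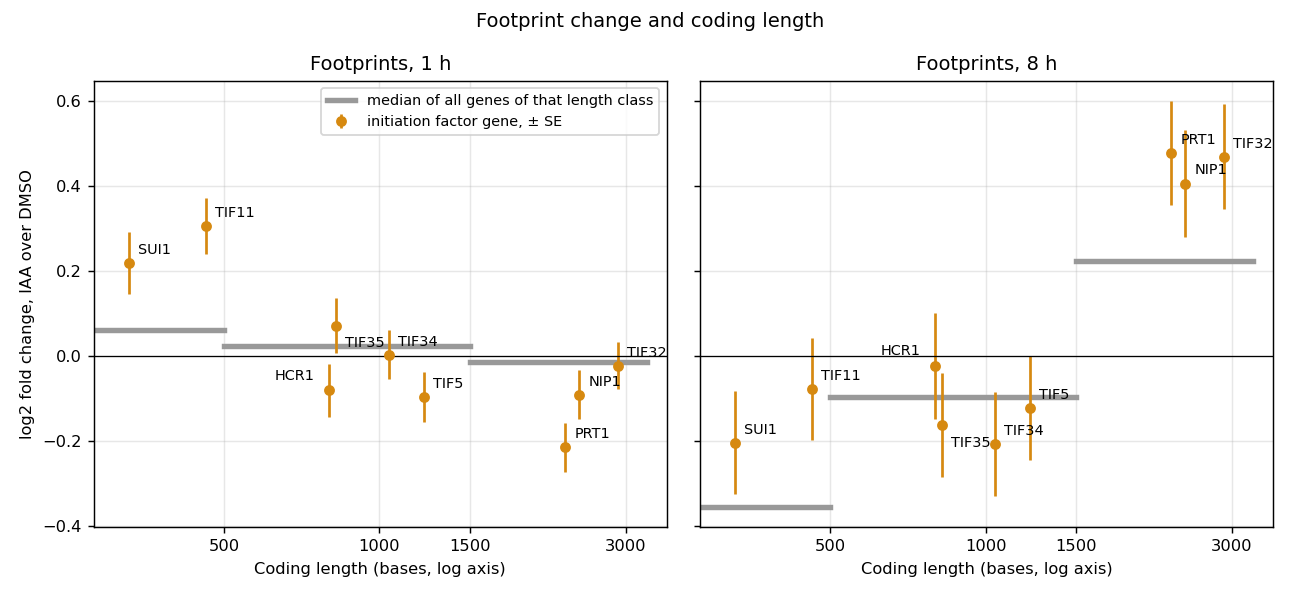
Footprint log2 fold change of IAA over DMSO (± SE) of the 9 genes against coding length (log axis) at 1 h and 8 h, with grey bars for the median of all protein-coding genes tested in 3 length classes. At 8 h TIF32, PRT1 and NIP1 lie between 0.41 and 0.48, above the median of 0.22 for genes of 1500 bases or more, and at 1 h SUI1 and TIF11 lie above the median of 0.061 for genes under 500 bases.

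The gene most like each member was the one at the smallest distance over the 4 log2 fold changes of RNA and footprints at 1 h and 8 h, among 3988 genes that averaged 50 or more counts in each of the 4 fits. For the large subunits these were PRO2 (TIF32, distance 0.0646), PSK2 (NIP1, 0.0561) and INP52 (PRT1, 0.0691). For the small core subunits and eIF3j they were CAJ1 (TIF34, 0.117), WRS1 (TIF35, 0.137) and REG1 (HCR1, 0.0825). TMA7 lay nearest to SUI1 (0.110), MPC1 to TIF11 (0.0956) and ERG12 to TIF5 (0.0450). No member had another member as its nearest gene, which says little with so few members among 3988 genes. The distances are similar in size to the SEs of the fold changes, so which gene lies nearest is uncertain.

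Of 21 genes of the other initiation factors (eIF2 with eIF5B, eIF2B, the eIF4 group with the poly(A)-binding protein and eIF4E-binding proteins, and the subunit joining and recycling factors TIF6 and RLI1), 9 were called lower and 0 higher in RNA at 1 h, and likewise at 8 h. For the count of 0 higher, DESeq2 and an unadjusted p under 0.05 also gave 0 at both times. Over all genes tested, RNA was called lower for 20.9% and higher for 21.9% at 1 h, and for 8.61% and 9.03% at 8 h. TIF4632, an eIF4G gene, changed by -0.63 ± 0.069 (adjusted p = 0.00162) and CAF20, which binds eIF4E, by -0.63 ± 0.090 (adjusted p = 0.00348) in RNA at 1 h. At 8 h CAF20 changed by -0.87 ± 0.11 (adjusted p = 0.00473) and TIF3 (eIF4B) by -0.61 ± 0.12 (adjusted p = 0.0148). The median RNA change over the 21 genes was -0.28 at 1 h and -0.40 at 8 h, against 0.0063 and 0.0080 over all genes tested.

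Their footprints were called higher for 4 and lower for 9 at 1 h, where PAB1, the poly(A)-binding protein, changed by -0.69 ± 0.050 (adjusted p = 4.11e-14) and CAF20 by -0.65 ± 0.069 (adjusted p = 7.96e-10). At 8 h 5 were called higher and 1 lower, with FUN12 (eIF5B) at 0.73 ± 0.13 (adjusted p = 1.55e-05) and CAF20 at -0.66 ± 0.12 (adjusted p = 3.54e-05). Efficiency was called higher for 5 and lower for 2 at 1 h, with the helicase gene DED1 at 0.67 ± 0.10 (adjusted p = 0.00195) and GCD1, a subunit gene of eIF2B, at -0.51 ± 0.11 (adjusted p = 0.0111). At 8 h 4 were called higher, TIF4631 (eIF4G) with 1.03 ± 0.19 (adjusted p = 0.00864) and FUN12 with 1.11 ± 0.21 (adjusted p = 0.00866) among them, and 0 lower, as with DESeq2 and at an unadjusted p under 0.05. Over all genes tested, footprints were called higher for 11.1% and lower for 14.9% at 1 h, and for 11.1% and 13.0% at 8 h. For efficiency these shares were 9.88% and 10.4% at 1 h, and 3.45% and 2.02% at 8 h. The 2 of 21 lower in efficiency at 1 h were thus near the background, and the 1 lower in footprints at 8 h below it. The median footprint change over the 21 genes was -0.12 at 1 h and 0.042 at 8 h, and the median efficiency change 0.084 at 1 h and 0.34 at 8 h.

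Between the times, footprints of 4 of these 21 genes were called higher at 8 h than at 1 h, with PAB1 at 0.59 ± 0.11 (adjusted p = 0.00119) and FUN12 at 0.56 ± 0.13 (adjusted p = 0.00595), and 0 lower (0 also with DESeq2 and unadjusted). Over all genes tested, 8.05% were called higher and 4.89% lower in footprints, and 0.946% and 0.496% in RNA. For RNA the count was 0 by each of the 3 readings, and the smallest p-values were those of TIF1 (-0.35 ± 0.17, adjusted p = 0.354), whose near-identical copy TIF2 makes its counts uncertain, and CAF20 (-0.26 ± 0.15, adjusted p = 0.439).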

How the data were processed

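The deposited values were whole-number counts of reads per gene, made by the authors and not normalised. The aligner was STAR, and the submitters' processing notes also list cutadapt and both R64 and sacCer3 as builds. No counter or strand setting is given in the sources used here. Footprint tables leave out 20 codons of most coding sequences (95.3% of those compared), which bears most on SUI1 and TIF11. Counter entries that name no gene (21.7 to 31.2% of RNA reads) were left out. Precision follows the depths given in the report. Replicates were not copies of 1 library (chi-square per degree of freedom 1.43 to 56.5).

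IAA was set against DMSO for RNA and for footprints, with 4 libraries per fit, in edgeR 4.0.16 in R 4.3.3 (filterByExpr, TMM, quasi-likelihood test, Benjamini-Hochberg over all genes tested). A treatment-by-assay interaction gave the change of translation efficiency and a treatment-by-time interaction the difference between the times, with 8 libraries per fit. Alternatives were DESeq2 1.42.0, its size factors, total counts, no filter, a replicate block, all 8 libraries of an assay, coding length less 20 codons for levels, and leaving out each library, where the lone sample of a group is assumed to vary like the others. Fits for RNA at 1 h, efficiency at 1 h and footprints between the times were tried on simulated counts. These took libraries as independent and gave every gene the same spread beyond counting noise. They therefore do not show error rates under the spread of the real libraries. Figures were drawn with matplotlib 3.10.9.

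All 9 genes are named in each comparison. Of the other initiation factors the 2 with the smallest adjusted p were named. Although no measured value enters the rule for the 9 genes, they and the lists were chosen with earlier results of these data known.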

Additional observations from a re-analysis of the deposited data

Results flagged for a closer look

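The footprint response to IAA differed between 8 h and 1 h for 3 of the 9 genes, by the test of the difference itself: 0.50 for TIF32, 0.51 for NIP1 and 0.71 for PRT1 on the log2 scale (8 h less 1 h). TIF32 had 361 and 312 footprint CPM after IAA and 235 and 249 after DMSO at 8 h, and 582 and 632 after IAA and 609 and 626 after DMSO at 1 h. Over all genes of 1500 bases or more the median of this difference was 0.22, and the part of coding length was not tested. Footprint libraries of the 2 times were prepared differently, which cannot be told apart from the time. Groups of 2 libraries are too small for a search for single outlying samples.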

How the results depend on the processing

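Of the 72 values of the members over the 8 comparisons, 24 were called, and 3 of these calls held under every alternative (SUI1 RNA and TIF11 footprints at 1 h, and the PRT1 footprint difference between the times). None of the 24 called values changed sign under any alternative, and 24 of the values that were not called did under at least 1. The shallowest library was DMSO replicate 1 of the 8 h footprints, with 1766499 counts.

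Scaling by total counts left 2 members called in RNA and gave 5 in footprints at 1 h, and 1 in RNA and 2 in efficiency at 8 h. It turned the sign of TIF32 (0.020) and NIP1 (0.14) in RNA at 1 h, of TIF32 (0.16), NIP1 (0.090), HCR1 (0.10) and TIF5 (0.086) in footprints at 1 h, of NIP1 RNA at 8 h (0.024), and of TIF34 (0.062), TIF35 (0.10), HCR1 (0.24), SUI1 (0.064), TIF11 (0.19) and TIF5 (0.14) in footprints at 8 h. Between the times it turned NIP1 (-0.11), TIF34 (-0.15) and TIF11 (-0.0015) in RNA and TIF5 (0.053) in footprints, the last also under DESeq2 (0.028) and its size factors (0.026). Over all genes total counts also moved the split of calls in RNA at 8 h (658 higher and 364 lower, against 551 higher and 525 lower with TMM), efficiency at 8 h (329 higher and 92 lower, against 188 higher and 110 lower), and RNA (23 higher and 54 lower, against 61 higher and 32 lower) and footprints (515 higher and 182 lower, against 405 higher and 246 lower) between the times. DESeq2 called 5 members in RNA and 2 in efficiency at 8 h, and over all genes 554 (footprints 1 h, against 1343 with edgeR), 781 (footprints 8 h, against 1206) and 244 (RNA between the times, against 93), and its size factors left 3 members in efficiency at 1 h. TIF34 footprints at 1 h were -0.00040 with DESeq2, -0.00093 without the filter and -0.0027 with all 8 libraries, a fit that called 1 member and 474 genes there and 4 members in RNA at 8 h. Without the filter 5 members were called in footprints between the times. The causes were not tested.

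Replicate numbers are shared between groups but no source says that a number marks a shared culture, and they were not taken to pair libraries. Deviations of same-numbered IAA and DMSO libraries correlated by 0.62 (RNA 1 h), 0.047 (footprints 1 h), 0.26 (RNA 8 h) and 0.047 (footprints 8 h). A replicate block gave 8 members in RNA at 1 h, 1 in RNA (TIF35, with HCR1 at -0.51, adjusted p = 0.0796) and 3 in efficiency at 8 h, and 829 genes in efficiency at 8 h (against 298) and 223 in RNA between the times.

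Leaving out 1 library at a time gave ranges for the members called of 1 to 6 (RNA) and 1 to 6 (efficiency) at 1 h, 0 to 2 (RNA), 0 to 3 (footprints) and 0 to 1 (efficiency) at 8 h, and 1 to 5 (footprints between the times). For all genes called they were 795 to 1112 (footprints) and 604 to 1324 (efficiency) at 1 h, 257 to 1102 (RNA), 507 to 1138 (footprints) and 10 to 562 (efficiency) at 8 h, and 22 to 63 (RNA) and 292 to 815 (footprints) between the times. Values that turned, all uncalled, ran over -0.087 to 0.032 (TIF32), -0.0100 to 0.013 (TIF34) and -0.042 to 0.18 (TIF35) in footprints at 1 h, -0.17 to 0.16 (NIP1) and -0.35 to 0.17 (SUI1) in RNA, -0.11 to 0.072 (HCR1) in footprints and -0.38 to 0.14 (SUI1) and -0.050 to 0.23 (TIF11) in efficiency at 8 h, and -0.10 to 0.22 (NIP1), -0.076 to 0.098 (TIF34) and -0.16 to 0.073 (TIF5) in RNA and -0.012 to 0.18 (HCR1) and -0.066 to 0.032 (TIF5) in footprints between the times.

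With coding length less 20 codons, the highest over the lowest member in footprint density was 3.08 after IAA and 2.45 after DMSO at 1 h, and 8.42 after IAA and 13.4 after DMSO at 8 h, against 2.66 and 2.05 at 1 h and 7.02 and 11.2 at 8 h with the whole length, and the large over the small core subunits was 0.259 after DMSO at 8 h.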
